A study of Homo sapiens with 8 samples.

Results

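The CAV2, CAV1 and MET locus was taken as the stretch of chromosome 7 that runs from 200 kb below the lowest to 200 kb above the highest of these 3 genes, positions 116299738 to 116998377 of hg38 (699 kb). Its members are the H3K27ac peaks in that stretch: 36 of the 42552 peaks listed for ARID1A knockout cells and 28 of the 39797 listed for control cells. Merging peaks that overlapped by at least 1 bp gave 38 regions of the 48662 in all. The regions were defined by the peak positions themselves, and each was classed as shared, knockout-only or control-only by the overlap of the same 2 lists. Their number, class and width are therefore descriptions of the lists, and none of them is a test of the genotype.

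H3K27ac, acetylation of lysine residue 27 of histone H3, marks active promoters and enhancers. The mark was mapped by ChIP-seq, in which an antibody pulls down chromatin fragments that are then sequenced. The cells were MDA-MB-231, a human line of triple-negative breast cancer, either with a knockout of ARID1A or as the control genotype. ARID1A belongs to BAF, a remodelling complex of the SWI/SNF family that moves nucleosomes. There were 8 libraries, 2 in each of 4 groups: knockout immunoprecipitate, control immunoprecipitate, knockout input and control input, and each genotype had 1 peak list called on its immunoprecipitate against its input. The labels do not say whether the knockout is 1 clone or a pool, and the extraction protocol names an H3K4me3 antibody whereas the sample characteristics name H3K27ac, so the mark is called here as in the titles and characteristics. Whether a list rests on 1 library of its group or on both is not stated. With 1 list per genotype there is no replicate error for any value below.

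MET is the receptor tyrosine kinase for hepatocyte growth factor, and it drives scattering, migration and survival of epithelial cells. CAV1 encodes caveolin-1, the main coat protein of caveolae, which are small invaginations of the plasma membrane. CAV2 encodes caveolin-2, a partner that forms mixed oligomers with caveolin-1. The 3 genes are neighbours transcribed in the same direction: CAV2 (gene 858; 116499738 to 116508541), CAV1 (gene 857; 116525009 to 116561185) and MET (gene 4233; 116672196 to 116798377). Between CAV2 and CAV1 lie 16.5 kb, and between CAV1 and MET 111 kb. The long non-coding RNA gene CAV2-DT (116416106 to 116499516) starts 222 bp from CAV2 on the opposite strand, and COMETT (116563594 to 116688027), also on the opposite strand, overlaps the lower part of MET. CAPZA2, a subunit of the actin filament capping protein, and the lower end of ST7 fill the upper part of the stretch.

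The promoter windows of the 3 members are shown because each lay wholly under 1 peak of each list, so acetylation of these sequences was common to both genotypes. They are RefSeq sequences on GRCh38.p14, plus strand, from 250 bases before to 50 bases after a listed start, so that base 251 is the start. Capitals mark each GC box, GGGCGG on either strand, with overlapping matches counted apart. For CAV2 the window is chr7:116499488-116499787, for CAV1 chr7:116524759-116525058 and for MET chr7:116671946-116672245.
CAV2: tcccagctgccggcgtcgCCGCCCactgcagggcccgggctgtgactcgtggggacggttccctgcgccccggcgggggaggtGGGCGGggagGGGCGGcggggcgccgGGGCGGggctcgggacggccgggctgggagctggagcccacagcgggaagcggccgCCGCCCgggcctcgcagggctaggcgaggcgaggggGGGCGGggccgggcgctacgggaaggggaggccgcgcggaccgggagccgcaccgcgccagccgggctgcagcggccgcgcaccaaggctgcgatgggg
CAV1: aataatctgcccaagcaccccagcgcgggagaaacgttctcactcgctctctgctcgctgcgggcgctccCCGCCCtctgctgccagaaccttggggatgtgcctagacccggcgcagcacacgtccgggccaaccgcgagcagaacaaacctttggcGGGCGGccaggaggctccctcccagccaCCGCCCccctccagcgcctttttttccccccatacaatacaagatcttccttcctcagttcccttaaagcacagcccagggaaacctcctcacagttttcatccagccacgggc
MET: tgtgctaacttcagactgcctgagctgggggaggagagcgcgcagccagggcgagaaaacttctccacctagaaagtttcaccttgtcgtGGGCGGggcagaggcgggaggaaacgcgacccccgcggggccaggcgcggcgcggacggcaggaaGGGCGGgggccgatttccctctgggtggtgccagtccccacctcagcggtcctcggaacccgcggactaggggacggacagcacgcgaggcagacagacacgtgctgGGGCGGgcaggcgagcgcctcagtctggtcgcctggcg

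The GC box occurred 6 times in the CAV2 window and 3 times each in the CAV1 and MET windows, and 56.3% of the 22131 protein-coding promoter windows of this length hold at least 1. The CAV2 window was 82.7% G and C, above 98.8% of those windows. The CAV1 window was at 62.3% and the MET window at 69.3%, against a median of 62.3% over all windows. The MET window also holds the E-box letters CACGTG at 1 position, as do 8.34% of all windows. Searched on both strands, none of the 3 windows holds an AP-1 motif (TGANTCA; 6.15% of all windows), a TEAD motif (GGAATG; 12.2%), a TATA box (TATAAA; 9.46%), a CCAAT box (34.6%) or an ETS motif (CCGGAAG; 12.8%). RefSeq lists another start for CAV2 and 2 others for CAV1, and their windows were also wholly under the same peaks in both lists.

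**Figure D1:**
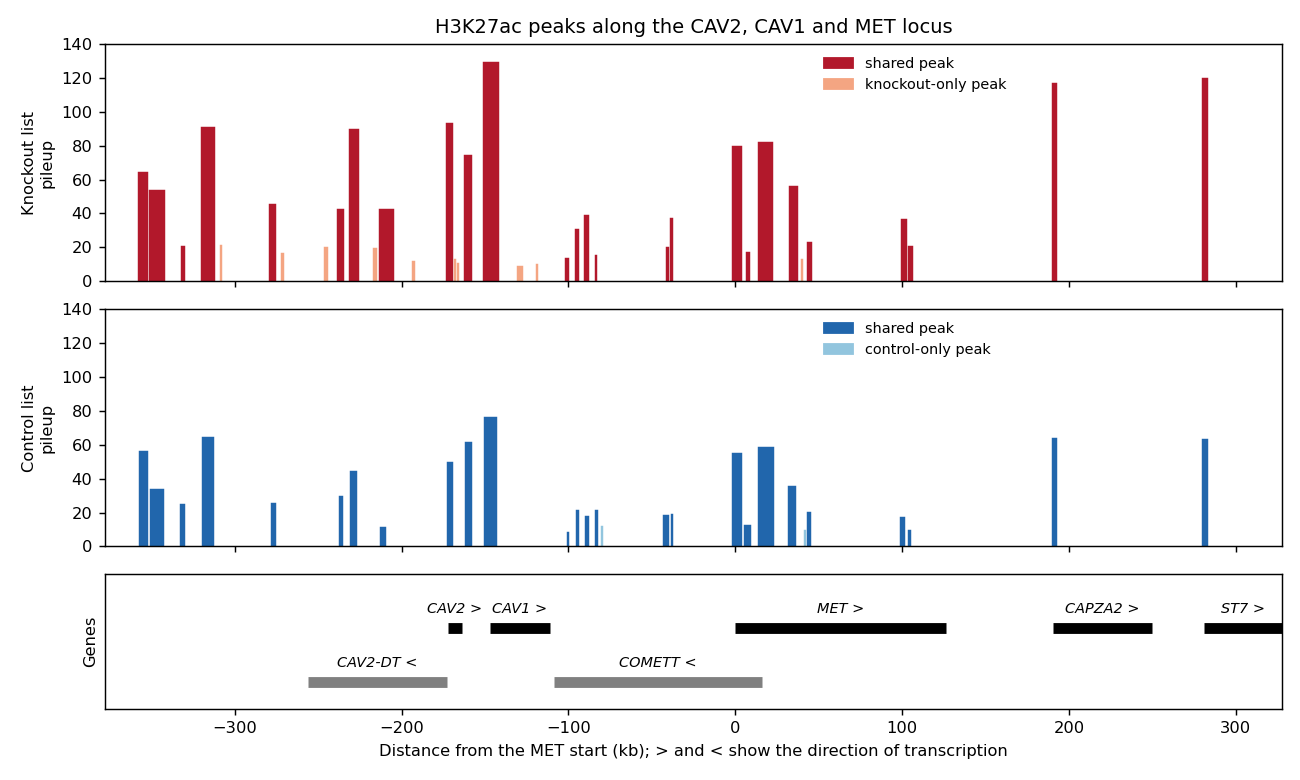
Peaks of the knockout list (upper panel) and of the control list (middle panel) along the locus, drawn to scale as bars over the authors' pileup (vertical axis), with a thin outline that keeps the narrowest visible; the horizontal axis is the distance from the MET start in kb. Dark bars are shared peaks and light bars are peaks in 1 list alone, 10 of 36 in the knockout list and 2 of 28 in the control list; the lower panel shows protein-coding genes in black and 2 non-coding RNA genes in grey.

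All 3 members carried a wide peak over their start in both genotypes, and by pileup the highest peak of the locus lay over CAV1 in each. By fold enrichment, the authors' ratio of a peak over its input-based background, the CAPZA2 start peak was the highest in each, at 25.7 in knockout cells and 20.3 in control cells, followed by CAV1 at 22.3 in knockout and 16.9 in control cells. The CAV1 peak spanned 116520769 to 116529854 in knockout cells (9.09 kb, pileup 129.53) and 116521628 to 116528788 in control cells (7.16 kb, pileup 76.48). It was at percentile 94.2 of the knockout list and 93.8 of the control list by pileup. The CAV2 peak, which also covers the start of CAV2-DT, had a pileup of 93.39 over 3.65 kb in knockout cells (116498951 to 116502602) and 49.52 over 3.01 kb in control cells (116499114 to 116502126). The MET peak had a pileup of 79.53 over 5.02 kb in knockout cells (116670494 to 116675509) and 54.90 over 5.08 kb in control cells (116670385 to 116675459).

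Pileup is the authors' coverage value of a peak. It ran higher in the knockout list generally, with a median of 32.0 against 22.7 in the control list over all peaks, and its scaling was not given in the sources used here. Pileups are therefore set side by side and read within a list only. Within the knockout list the CAV2 peak reached 72.1% of the CAV1 pileup, and within the control list 64.7%. The MET peak reached 61.4% of the CAV1 pileup in the knockout list and 71.8% in the control list. By pileup the order of the gene starts was thus CAV1, ST7, CAPZA2, CAV2 and MET in knockout cells, and CAV1, CAPZA2, ST7, MET and CAV2 in control cells. CAV2 and MET stood in the opposite order in the 2 lists by pileup, but by fold enrichment CAV2 was above MET in both, at 18.3 against 14.3 in knockout cells and 12.19 against 12.01 in control cells. By pileup, CAPZA2 (117.01 in knockout, 63.68 in control) and ST7 (119.92 in knockout, 63.60 in control) were close together in both. With 1 value per genotype, whether neighbours in this order differ beyond the spread between replicates cannot be told.

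**Figure D2:**
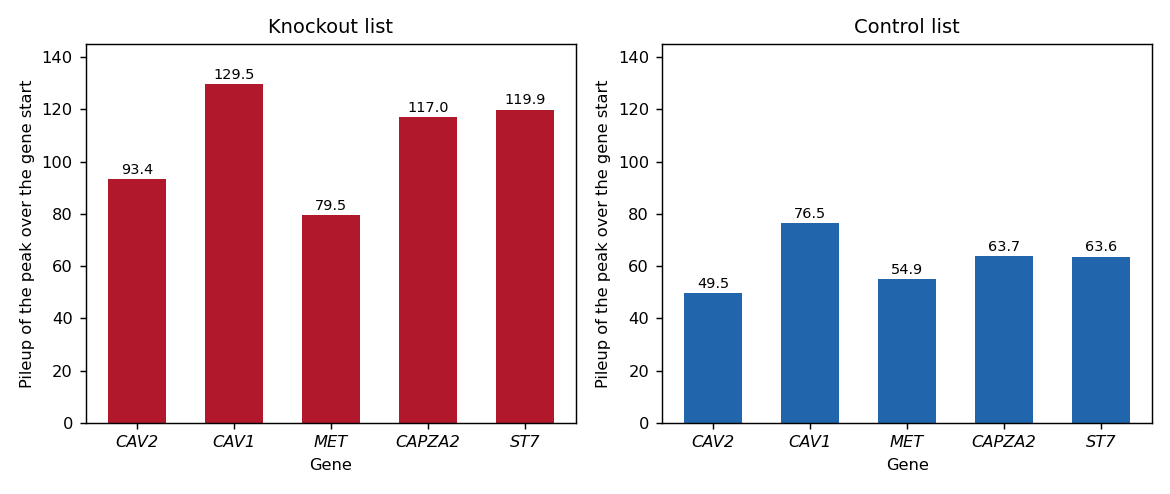
Pileup (vertical axis, the authors' coverage value) of the peak over the start of each protein-coding gene of the locus (horizontal axis), in the knockout list (left panel) and the control list (right panel), 1 value per bar and no error. CAV1 is the highest in both panels, at 129.5 and 76.5, and CAV2 lies above MET only in the left panel.

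The share of regions acetylated in both genotypes was close to that of the whole lists. Of the 38 regions 26 were shared (68.4%, against 65.7% of all regions), 10 were knockout-only (26.3%, against 19.6%) and 2 were control-only (5.26%, against 14.7%). Each shared region consisted of exactly 1 knockout and 1 control peak, with no split or joined peaks. The knockout-only peaks were 27.8% of the 36 knockout peaks (95% exact interval 14.2 to 45.2, counting error only), against 22.4% of all knockout peaks. The control-only peaks were 7.14% of the 28 control peaks (0.877 to 23.5), against 18% of all control peaks. Both intervals include the share over all peaks. With a −log10 q of at least 5 in both lists, the knockout-only share was below that of its list instead of above it: 4 of 24 knockout peaks (16.7%), against 23.2% of all such knockout peaks, and 2 of 22 control peaks (9.09%), against 10.2% of all such control peaks.

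Peaks in 1 list alone were weak. All 10 knockout-only peaks lay in the lower 50% of their list by fold enrichment, at percentiles from 4.19 to 34.0. Both control-only peaks also lay in the lower 50% of their list, at percentiles 10.1 and 26.8. Of the 18 locus peaks in the lower 50% of the knockout list, 10 had no partner, which is 55.6% (30.8 to 78.5), against 41.4% of all knockout peaks there. Of the 11 in the lower 50% of the control list, 2 had none, which is 18.2% (2.28 to 51.8), against 34.4% of all control peaks there. Both intervals again include the share of the list. The locus peaks in the upper 50%, 18 in the knockout list and 17 in the control list, were all shared, where 3.39% of all knockout and 1.52% of all control peaks of that strength had no partner.

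**Figure D3:**
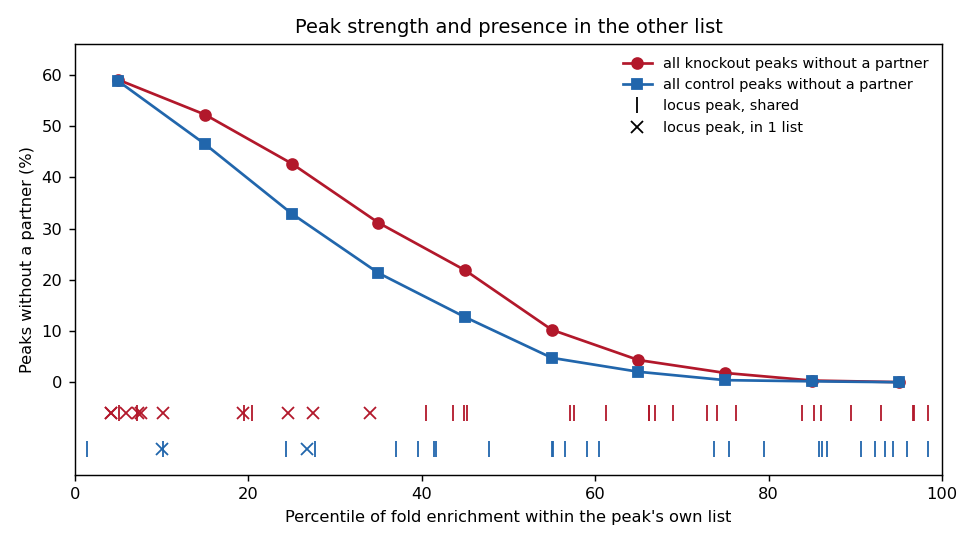
Share of peaks without a partner in the other list (vertical axis, percent) by percentile of fold enrichment within the own list (horizontal axis), for all knockout peaks (red circles) and all control peaks (blue squares) in 10 equal bins of each list; the ticks and crosses under the curves are the locus peaks, knockout in the upper and control in the lower row. The crosses, which are the peaks in 1 list alone, all lie at or below percentile 34.0, where the curves are high.

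Of the 10 knockout-only regions, 9 lay below CAV2 or within the 2 caveolin genes and 1 lay in MET. They were 5 of 13 knockout peaks below CAV2, 4 of 7 from CAV2 to CAV1 and 1 of 8 over MET. The share over all knockout peaks was 22.4%, and numbers this small do not set the segments apart. Only 2 of the 10 were also knockout-only with a −log10 q of at least 5 in both lists. Of the 5 below CAV2, 3 lay inside CAV2-DT. The 2 with the highest fold of all 10 were in CAV2-DT, at 116425771 to 116427418 (1648 bp, pileup 20.04, fold 3.91) and 116454938 to 116456771 (1834 bp, pileup 19.31, fold 3.51). The third in CAV2-DT lay at 116478362 to 116479291 (930 bp, fold 2.59). Farther below, outside any annotated gene, were the regions at 116363503 to 116364096 (594 bp, fold 2.70) and 116400014 to 116401346 (1333 bp, fold 3.36).

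CAV2 and CAV1 each held 2 knockout-only regions inside the gene body. Those of CAV2 were at 116503520 to 116503994 (475 bp, fold 3.10) and 116505219 to 116505799 (581 bp, fold 2.53), both beyond the start peak. Those of CAV1 were at 116541180 to 116544145 (2966 bp, fold 2.46), the widest of the 10, and 116552538 to 116553049 (512 bp, fold 2.46). All of these were near the floor of the knockout list, at pileup percentiles from 1.44 to 10.6. Their −log10 q values ran from 1.30 to 3.14, so none is kept at a −log10 q of at least 5. In the control list the only peak touching either gene was the one over its start. Exons and introns were not told apart, since the gene table holds only gene ends.

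In MET itself, 1 knockout-only and 1 control-only region lay next to each other, 39.7 and 41.4 kb above the start by their middles. The knockout-only region ran from 116711537 to 116712327 (791 bp, pileup 13.19, fold 2.60) and the control-only region from 116713431 to 116713756 (326 bp, pileup 9.57, fold 2.78). The gap of 1103 bp between them is the narrowest by which any locus peak missed a peak of the other list. The other control-only region, at 116591486 to 116592124 (639 bp, pileup 12.08, fold 3.44), lay between CAV1 and MET inside COMETT, 2.70 kb from the nearest knockout peak. The narrowest overlap that still made a shared region was 233 bp, also inside COMETT, between a knockout peak of 1413 bp (116570204 to 116571616) and a control peak of 265 bp (116571384 to 116571648).

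At the authors' threshold, the sequence under peaks was longer in knockout cells below and over the caveolin genes and nearly equal over MET. The contrast between the caveolin genes and MET was not kept with stricter peaks. Knockout peaks covered 113 kb of the locus (16.2%) and control peaks 87.4 kb (12.5%), a difference of 25.6 kb. Below CAV2 they covered 51.0 kb in knockout and 32.5 kb in control cells, and from CAV2 to the upper end of CAV1 20.6 kb in knockout and 13.2 kb in control cells. Between CAV1 and MET knockout peaks covered 9.97 kb and control peaks 10.7 kb. Over MET the values were 25.92 kb in knockout and 25.86 kb in control cells, and above MET 5.43 kb in knockout and 5.13 kb in control cells. The segments below CAV2 and from CAV2 to CAV1 thus held 18.5 and 7.41 kb of the difference. In the other segments knockout minus control came to −0.703 kb between CAV1 and MET, 0.059 kb over MET and 0.296 kb above it. With a −log10 q of at least 5 in both lists, knockout minus control was 16.6 kb below CAV2, 2.88 kb from CAV2 to CAV1 and 3.71 kb over MET, so that MET then differed more than the caveolin genes. These segments were drawn after the peaks had been seen.

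**Figure D4:**
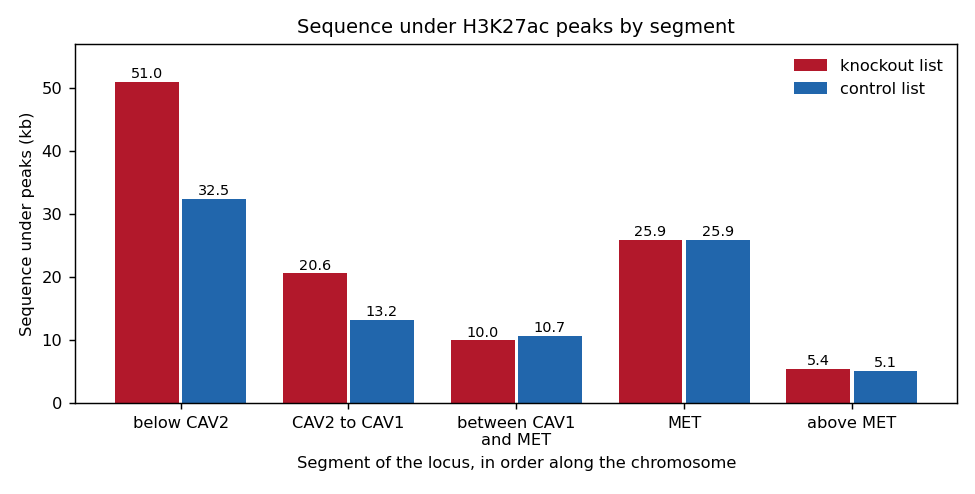
Sequence under H3K27ac peaks (vertical axis, kb) in 5 successive segments of the locus (horizontal axis), red for the knockout list and blue for the control list, 1 value per bar and no error. The knockout bar is the taller by 18.5 kb below CAV2 and by 7.41 kb from CAV2 to CAV1, while both bars stand at 25.9 kb over MET.

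Nearly all control acetylation of the locus lay under knockout peaks, and less so the other way round. Of the sequence under control peaks 91.3% was also under knockout peaks, against 78.2% over all chromosomes. Of the sequence under knockout peaks 70.6% was also under control peaks, against 75.9% over all chromosomes. From CAV2 to CAV1 the sequence under control peaks lay entirely under knockout peaks, and below CAV2 all but 0.153 kb of it did. Over MET the exchange ran both ways, with 4.53 kb under knockout peaks alone and 4.47 kb under control peaks alone.

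The shared peaks were mostly wider in knockout cells along the caveolin part of the locus. Of the 26 pairs 19 were wider in the knockout list (73.1%), against 51.1% of all 30509 pairs of 1 knockout and 1 control peak. The median difference, knockout minus control, was 486 bp in the locus and 14 bp over all pairs. Below CAV2 the knockout peak was the wider in 7 of 8 pairs and from CAV2 to CAV1 in all 3. Between CAV1 and MET it was the wider in 4 of 6 pairs, over MET in 4 of 7 and above MET in 1 of 2. Peak width depends on where a caller sets the edges and so also on depth, which was not given in the sources used here, and the part of depth in these widths was not tested.

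**Figure D5:**
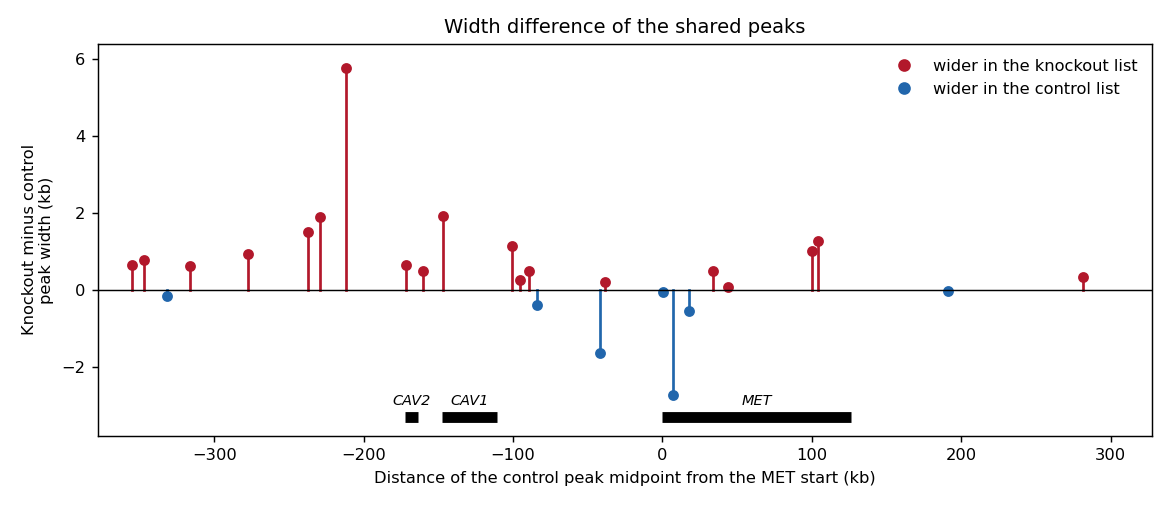
Difference in width between the knockout and the control peak of each of the 26 shared pairs (vertical axis, kb, knockout minus control) by position (horizontal axis, middle of the control peak in kb from the MET start); red pairs are wider in the knockout list and blue pairs in the control list, and black bars mark the genes. The pairs at and below CAV1 lie above 0 with 1 exception. The pairs near the MET start lie below it, that of the start peak itself by only −59 bp.

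The pair that differed most in width lay inside CAV2-DT. There the knockout peak ran from 116458331 to 116467078 (8748 bp, pileup 42.45, percentile 60.0 of its list) and the control peak from 116459170 to 116462149 (2980 bp, pileup 11.56, percentile 17.8). Knockout minus control, its lower edge differed by −839 bp and its upper edge by 4929 bp. Its width differed by 5768 bp, inside the range of −10342 to 12944 bp over all 30509 pairs. The control peak was weak, with a −log10 q of 3.13, and is not kept at a −log10 q of at least 5. The knockout peak was the second widest of its list in the locus, after the CAV1 start peak. The neighbouring pair in CAV2-DT was 5447 bp wide in knockout (116440415 to 116445861, pileup 89.96) and 3542 bp in control cells (116441008 to 116444549, pileup 44.47). The next below it was 3155 bp wide in knockout (116433619 to 116436773) and 1656 bp in control cells (116434481 to 116436136). In all, knockout peaks covered 26.8% of CAV2-DT and control peaks 10.3%.

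Below CAV2-DT, the strongest peaks lay between 116314341 and 116359457, in the non-coding RNA gene LOC105375463 and in sequence with no annotated gene. The peak near 116352110 had a pileup of 91.09 in knockout cells (7348 bp wide) and 64.63 in control cells (6724 bp wide). It was the fifth highest pileup of the locus in the knockout list and the second in the control list. A pair of peaks at the lower edge had pileups of 64.64 and 53.55 in knockout cells and 56.08 and 33.92 in control cells. Of the 8 pairs below CAV2, the one at 116339622 to 116341713 in knockout cells (2092 bp, pileup 20.74) and 116339569 to 116341813 in control cells (2245 bp, pileup 24.84) was the only one wider in control.

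Between CAV2 and CAV1 a peak with no annotated gene under it was strong in both genotypes. It spanned 116509741 to 116513879 in knockout cells (4139 bp, pileup 74.26) and 116510025 to 116513685 in control cells (3661 bp, pileup 61.68). Within the knockout list it reached 57.3% of the CAV1 pileup, and within the control list 80.6%. By pileup it ranked below the CAV2 start peak in knockout cells and above it in control cells.

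Acetylation of MET was concentrated in its lower part, and the middle of the gene had none in either genotype. From the start to 45.3 kb into the gene there were 6 knockout and 6 control peaks. The widest was at 116686057 to 116694402 in knockout cells (8346 bp, pileup 82.07) and 116685648 to 116694545 in control cells (8898 bp, pileup 58.74), its middle 18.0 kb above the start in knockout and 17.9 kb in control cells. In both lists it also covered the upper end of COMETT, at 116688027 on the opposite strand, so it is not a peak of MET alone. Its pileup exceeded that of the MET start peak in both lists. In the control list it was the widest peak of the locus, and in the knockout list the fourth widest. Over MET as a whole, peaks covered 20.5% of the gene in each list, against a median of 2.42% in the knockout list and 2.36% in the control list over 6258 protein-coding genes of at least 50 kb.

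The pair next to the MET start peak differed in width in the other direction from most pairs around the caveolin genes. It was 1302 bp wide in knockout cells (116678842 to 116680143, pileup 17.19) and 4028 bp in control cells (116677225 to 116681252, pileup 12.86). Both of its peaks were weak, with a −log10 q of 2.71 in knockout and 3.92 in control cells. Neither is therefore kept at a −log10 q of at least 5. The next pair was the widest over MET, given above, and it too was wider in control, at 8346 bp in knockout and 8898 bp in control cells. The 2 pairs after it had their middles 34.6 and 44.2 kb above the start in knockout cells, and 33.8 and 44.1 kb in control cells. They were 4345 and 2110 bp wide in knockout cells and 3866 and 2038 bp in control cells. A stretch of 53.7 kb without a peak in either list followed. Beyond it lay 2 last pairs, with the middles of their knockout peaks 101 and 105 kb above the start. Of these, the first was 3051 bp wide in knockout (pileup 36.76) and 2052 bp in control cells (pileup 17.47). The second was 2664 bp wide in knockout (pileup 20.70) and 1392 bp in control cells (pileup 9.53, percentile 8.97 of its list).

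Between CAV1 and MET the peaks were small and inside COMETT. The 6 knockout peaks had pileups from 13.64 to 39.16 and the 7 control peaks from 8.68 to 21.76. The 2 pairs here that were wider in control were at 116630443 to 116631609 in knockout cells (1167 bp, pileup 20.36) and 116628845 to 116631652 in control cells (2808 bp, pileup 18.78), and at 116588066 to 116588784 in knockout cells (719 bp, pileup 15.70) and 116587945 to 116589059 in control cells (1115 bp, pileup 21.64). No peak of either list lay within 1 kb of the only listed COMETT start, at 116614657, which is inside the gene. The upper end of COMETT, at 116688027, is its beginning in the direction of transcription. That end lay under the widest peak over MET in both lists. Above MET the only peaks were those over the starts of CAPZA2 and ST7, separated by 87.6 kb without a peak in either list. The peak over ST7 was 3415 bp wide in knockout (116951834 to 116955248) and 3088 bp in control cells (116951902 to 116954989), and that over CAPZA2 2015 bp in knockout and 2046 bp in control cells.

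Peak heights ran in a similar order in the 2 lists over the locus as a whole. Across the 26 pairs, knockout and control pileups had a Spearman correlation of 0.88, and across all 30509 pairs one of 0.84. It was 0.93 for the 8 pairs below CAV2, 0.93 for the 7 over MET and 0.14 for the 6 between CAV1 and MET. Control pileups of these 6 included 17.91, 18.78, 19.27, 21.64 and 21.76, so small differences set their order. The low value is therefore not a trait of that segment. The points share the genotype's libraries and the width of the regions, so these values are descriptions only. The outermost peaks lay well inside the stretch chosen: the nearest peaks below it were at 116284717 to 116284982 in the knockout list (266 bp, pileup 10.83) and 116270544 to 116274375 in the control list (3832 bp, pileup 41.11). The nearest above it began at 117014361 in the knockout list and at 117019931 in the control list.

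Set beside other stretches of the same length, the locus was densely acetylated; since it was chosen with its peaks known, these values are a description. Successive windows of 699 kb were taken either with a peak in both lists (3473 windows) or with at least 20 peaks in each (542 windows). The sequence under knockout peaks in the locus exceeded that of 99.2% of the 3473 windows and 95.2% of the 542. The sequence under control peaks exceeded that of 96.5% of the 3473 and 78.4% of the 542. The knockout length was 1.29 times the control length, above 73.3% of the 3473 windows (median 1.04) and 92.1% of the 542 (median 0.938). The share of knockout-only peaks was above 65.3% of the 3473 windows and 90.0% of the 542. The share of control length under knockout peaks was above 80.3% of the 3473 and 93.5% of the 542. The 3 protein-coding genes of at least 50 kb most like MET, by the distance between the shares of the gene under knockout and under control peaks, were ABL2 (20.9% in knockout, 20.7% in control), GNG7 (21.0% in knockout, 20.5% in control) and SLC43A2 (21.2% in knockout, 20.9% in control). That likeness rests on 1 value per list.

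Most other genes of caveolae and of MET signalling had a peak at the start in both lists, as did most protein-coding genes. Of 14 caveola genes, 11 had one in both lists, among them CAVIN1 and CAVIN3, coat components that act with caveolin-1, and EHD2, an ATPase at the caveolar neck. The 3 without one in either were CAV3, the muscle caveolin, CAVIN4, a muscle cavin, and NOS3, the endothelial nitric oxide synthase. Of 28 genes of hepatocyte growth factor and MET signalling, 24 had one in both, including the adaptors GAB1, GRB2 and SHC1 and the co-receptor CD44. The 4 without one in either were HGF, the ligand itself, and the proteases HGFAC, HPN and ST14. Over all 19970 protein-coding genes, 61.3% had a start peak in both lists and 35.5% in neither. None of the 42 genes had one in 1 list alone, against 1.5% of all protein-coding genes in knockout alone and 1.66% in control alone. At shares that small, finding none among 42 genes is not a trait of these lists. The widths of single start peaks went both ways. As examples, the CAVIN1 start peak was 5541 bp wide in knockout (pileup 164) and 17716 bp in control cells (pileup 55.0). The FLOT1 start peak was 15488 bp wide in knockout (pileup 91.3) and 5913 bp in control cells (pileup 76.8). The GAB1 start peak was 2426 bp wide in knockout (pileup 96.8) and 2548 bp in control cells (pileup 63.2).

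Markers of the cell line were checked in the same way. All 8 mesenchymal and basal-like markers, such as VIM, AXL and CD44, had a start peak in both lists, and none of 4 leukocyte markers had one in either. Of 6 luminal markers, CDH1 and PGR had none in either list, whereas ESR1, GATA3, FOXA1 and TFF1 had one in both. Of 3 hepatocyte markers, ALB and TTR had none, and APOA1 had one in both. These counts stand against 61.3% of all protein-coding genes with a start peak in both lists and 35.5% with one in neither.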

How the data were processed

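The values used were the 2 deposited peak lists, 1 for knockout and 1 for control cells, whose names pair the immunoprecipitate of a genotype with its own input. Per the submitters' processing notes, the build was hg38 and the tools were Bowtie2 2.3.5.1, an aligner, and MACS2 2.2.6, a peak caller. Options, read filters, the pooling of replicates and the depth of each library are not given in the sources used here. For every peak, per the file headers, the authors gave a position, a length, a pileup (a coverage signal), a fold enrichment (a ratio), and a −log10 p-value and q-value, of which the p-value was not used. End minus start plus 1 equals the length, so positions count from 1. The headers do not say whether pileup is the height at the summit or a mean over the peak.

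Peaks of chromosomes 1 to 22 and X were used. Overlaps, classes and lengths were computed with pandas 2.3.3, numpy 2.4.6 and scipy 1.17.1 under Python 3.11.15, and tested on simulated peaks. Bedtools 2.31.1 gave the same counts of peaks without a partner. Percentiles are within a peak's own list, and ranks from lists of different lengths show no change. Exact intervals are Clopper-Pearson at 95%. Genes are RefSeq on GRCh38.p14, the assembly of hg38. A start peak lies within 1 kb of a start listed for 15811 of 19970 protein-coding genes, and for the others within 1 kb of either gene end. Successive windows were laid from base 1 of each chromosome. The peaks named are all those over gene starts, all genotype-only regions, the highest and the widest of each list and those that show a pattern, the last chosen after their values were seen. The member genes, lists, motifs and segments were chosen with earlier results of these data known. Figures were drawn with matplotlib 3.10.9. No test of the genotype was possible, and the alternatives were a stricter q-value, other overlaps, other spans and an equal number of peaks.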

Additional observations from a re-analysis of the deposited data

How the results depend on the processing

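Peak numbers, shared regions and lengths under peaks stayed within 1.5 times their values in every alternative run, and all 3 member genes kept a start peak in both lists with a window of 2 kb or a −log10 q of at least 5. With that −log10 q in both lists, knockout-only peaks numbered 4 (16.7%, against 23.2% of all such knockout peaks), of which 2 were among the 10. Control-only peaks numbered 2 (9.09%, against 10.2% of all such control peaks), of which 0 were among the original 2. The knockout-only share was thus below that of its list, whereas at the authors' threshold it was above. That −log10 q left 46.0 kb under knockout and 29.5 kb under control peaks below CAV2. From CAV2 to CAV1 it left 16.1 kb under knockout and 13.2 kb under control peaks. Over MET it left 23.8 kb under knockout and 20.1 kb under control peaks. With the knockout list reduced to as many peaks as the control list, an alternative chosen after seeing the data, knockout-only peaks numbered 6, all among the 10, or 18.8% of the locus peaks against 19.5% of the list. It left 16.6 kb under knockout and 13.2 kb under control peaks from CAV2 to CAV1, and 25.92 kb under knockout and 25.86 kb under control peaks over MET. When 50% of a peak had to be covered to be shared, knockout-only peaks numbered 12 (33.3%, against 29.5% of the list) and control-only peaks 4 (14.3%, against 24.1%). The share of knockout length under control peaks was 71.6% with the stricter q, 64.5% with 100 kb and 68.6% with 500 kb either side, and 73.9% with equal numbers of peaks. The share of control length under knockout peaks was 91.4% with the stricter q, 87.7% with 100 kb and 91.3% with 500 kb either side. Where these values moved, the cause was not tested beyond the change of setting itself. No paired analysis was possible because each genotype had 1 peak list and no value per library, and for the same reason no replicate could be left out. The depth of the libraries, which limits the detection of weak peaks, was not given in the sources used here.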
